A study of Mus musculus with 6 samples.

Results

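Secreted Wnt antagonists are proteins that cells release to hold back Wnt signalling. Here they comprised 10 genes (Sfrp1, Sfrp2, Sfrp4, Sfrp5, Frzb, Wif1, Dkk1, Dkk2, Dkk3 and Notum), taken as every array probe that is not a control and whose transcript maps to one of these symbols in RefSeq. All 10 genes had a probe and together they had 13, out of 22911 named genes and 56605 probes on the array. Frzb, Dkk3 and Notum had 2 probes each. The genes were compared across 3 kinds of mouse lung sample on 6 one-colour Agilent arrays, 2 per group. Myofibroblasts are contractile cells that lay down matrix in injured tissue, and here they were CD49e+Sca1-Lin- cells sorted from lungs treated with bleomycin, a drug given to mice to model lung fibrosis. Steady-state fibroblasts were CD140a+Lin- cells sorted from untreated lungs, and homogenates of whole untreated lung served as controls. All samples were labelled male. Per the labels each set held 50000 cells, and Cy3-labelled cRNA was made from 5.8 ng of total RNA. Strain, age and the dose and timing of bleomycin are not given in the sources used here. Whether both samples in a group stem from different animals is not stated in the labels. The spread behind each p-value is therefore that between these samples alone and may be technical.

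Wnt proteins signal by bringing together a Frizzled receptor and the coreceptors Lrp5 or Lrp6, which stabilises beta-catenin and switches on target genes through TCF and LEF factors. The antagonists act at different points outside the cell. The secreted Frizzled-related proteins, to which Frzb (sFRP3) belongs, and Wif1 bind Wnt proteins. Dkk1 and Dkk2 bind Lrp5 and Lrp6 and need the Kremen receptors to remove these from the surface, Dkk3 is a divergent family member that does not act in this way, and Notum is an enzyme that removes the lipid a Wnt protein needs to bind its receptor. In the lung, Wnt signals pass between the epithelium and the mesenchyme during development and repair.

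The promoters of 2 members that were higher in myofibroblasts, Dkk2 and Frzb, and of 1 that did not pass any test, Dkk1, are shown because all 3 are in the RefSeq promoter table and the TCF/LEF core is the motif through which Wnt signals reach a gene. RefSeq windows (GRCm38.p6) were matched for 6 of the 10 members, and for 5 of them the bases before the gene's start could be read. The lines give bases before the gene's first annotated base, 5' to 3' on the gene's strand, at chr3:132085042-132085265 (plus strand) for Dkk2, chr2:80447397-80447646 (minus strand) for Frzb and chr19:30549497-30549746 (minus strand) for Dkk1. The Dkk2 line holds 224 bases and the other lines 250, because the start site of its RefSeq window lies inside the annotated gene. Capitals mark motif matches.
Dkk2: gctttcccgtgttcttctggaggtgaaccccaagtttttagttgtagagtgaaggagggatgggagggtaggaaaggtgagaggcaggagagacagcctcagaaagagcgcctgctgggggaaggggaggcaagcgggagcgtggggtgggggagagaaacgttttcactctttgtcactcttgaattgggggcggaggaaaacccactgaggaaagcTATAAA
Frzb: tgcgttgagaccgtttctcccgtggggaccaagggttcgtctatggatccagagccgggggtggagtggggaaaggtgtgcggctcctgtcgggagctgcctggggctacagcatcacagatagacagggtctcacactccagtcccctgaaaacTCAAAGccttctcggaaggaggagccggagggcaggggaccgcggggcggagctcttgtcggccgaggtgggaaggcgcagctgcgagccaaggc
Dkk1: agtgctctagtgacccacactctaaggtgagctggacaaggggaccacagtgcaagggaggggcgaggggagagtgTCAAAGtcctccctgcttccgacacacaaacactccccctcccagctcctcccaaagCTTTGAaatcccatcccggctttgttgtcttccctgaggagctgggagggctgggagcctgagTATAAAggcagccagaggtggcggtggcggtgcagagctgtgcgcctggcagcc
Both strands were searched for the TCF/LEF core CTTTGA, the TATA box TATAAA, the TEAD motif GGAATG and the AP-1 motif TGANTCA, and no matches overlapped. Of all 32851 RefSeq windows of 250 bases, 13.8% hold the TCF/LEF core, 12.4% the TATA box, 12.6% the TEAD motif and 6.75% the AP-1 motif. Dkk2 holds a TATA box that begins 32 bases before the start site of its RefSeq window and no TCF/LEF core. Frzb holds 1 TCF/LEF core, 95 bases before its start site. Dkk1 holds 2, at 174 and 117 bases, and a TATA box at 54. Sfrp5 holds none of the 4 motifs, and Wif1 holds a TATA box at 232 bases. None of these 5 windows holds the TEAD or AP-1 motif. A match describes the letters of these windows and not a site in use.

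The fibroblast arrays differed from each other more than the arrays of the other groups did: of the genes well above background on both, 23.5% lay over 2-fold apart, against 7.84% for myofibroblasts and 2.83% for homogenates. Between the arrays of different groups, fibroblast replicate 2 correlated with the myofibroblast arrays at 0.909 and 0.903 and replicate 1 at 0.860 and 0.849 (log2 values across genes, which are not independent). With the homogenate arrays, replicate 2 correlated at 0.893 and 0.888 and replicate 1 at 0.859 and 0.852. Replicate 1 was thus less similar to both other groups. The libraries labelled male lung homogenate also went against that label. Xist, the RNA that silences an X chromosome in female cells, read 4.74 and 4.64 in them (log2 signal relative to the array's 75th percentile) and was not well above background on 3 of the 4 sorted arrays, while the Y-linked gene Ddx3y read between -0.33 and 1.78 on the sorted arrays and was not well above background in homogenate. Of 4 Y-linked genes, 3 were not well above background there, and the other, Eif2s3y, read -3.20 and -3.07 in homogenate against 0.51 to 0.99 on the sorted arrays. The homogenates thus differ from the sorted samples in sex-linked genes as well as in cell content, and they lay in the other row of the slide. These differences cannot be told apart in any comparison with homogenate. The sorted cells carried the genes of their gates, with Itga5 (CD49e) higher in myofibroblasts by 4.01 and Ly6a (Sca-1) and Pdgfra (CD140a) lower, at -1.94 and -2.36 on the log2 scale. The gate and the bleomycin treatment differ between the same groups and cannot be told apart either.

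Levels below are log2 values of the background-subtracted signal relative to the array's 75th percentile, so that 0 is the brightness of that percentile. A level belongs to its probe and is not compared between genes. Groups said not to overlap are described and not tested, and the share of all genes that separate likewise is not given here. Differences are given with limma's SE (n = 2 per group) and the Benjamini-Hochberg adjusted p over all genes tested. A gene was tested where 1 or both of the groups compared had it well above background on both arrays, and it is said to have risen, fallen or differed only at an adjusted p under 0.05. The fit uses the reading of every array, also where it was not well above background. There the fitted difference, SE and p-value rest partly on levels that were not measured.

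Between myofibroblasts and steady-state fibroblasts, Dkk2, Frzb and Sfrp1 were higher in myofibroblasts and Sfrp4 was lower. Of the 9 members tested, 3 were higher and 1 lower. Frzb entered the test only through the myofibroblast arrays, as fibroblast replicate 2 was not well above background. Over all 16008 genes tested 17.2% were called, 9.21% higher and 8.01% lower, and 16.1% of all probes tested were. Higher genes made up 53.5% of the called ones, against 25.4% in the authors' deposited table and 64.6% after median scaling, and the 4 member calls held under each of these scalings. The median difference of the 9 members was 0.10, beside -0.06 for all genes. The 3 that rose act at different points, Dkk2 at the coreceptors and Frzb and Sfrp1 on the Wnt proteins themselves.

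**Figure D1:**
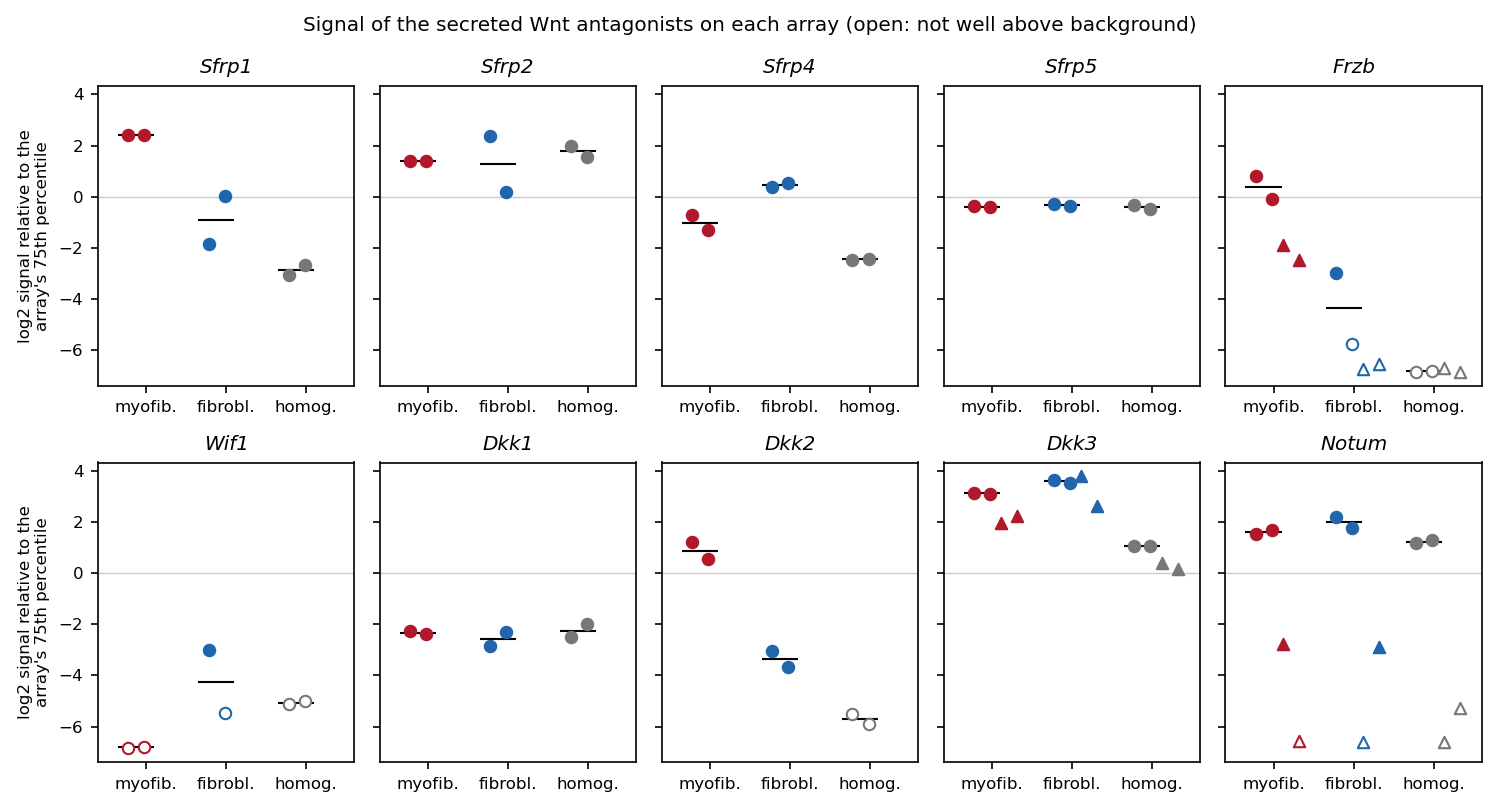
Log2 signal of each member relative to the array's 75th percentile (y axis) on each of the 6 arrays, with the 2 myofibroblast, 2 fibroblast and 2 homogenate arrays side by side. Circles are the brightest probe, triangles a second probe, open symbols are not well above background, and bars are group means of the brightest probe. Dkk2 steps down from 0.89 to -3.34 to -5.70, while Sfrp5 lies between -0.48 and -0.30 on all 6 arrays.

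Among the proteins that bind Wnts, Sfrp1 read 2.41 and 2.42 in myofibroblasts, -1.85 and 0.04 in fibroblasts, and -3.05 and -2.67 in homogenate. The 3 groups did not overlap, and the myofibroblast arrays were almost identical while the fibroblast arrays lay 3.72-fold apart. Sfrp1 was 10.01-fold higher in myofibroblasts than in fibroblasts (3.32 ± 0.62 on the log2 scale, adjusted p = 0.0238). The size of this difference depended on the fibroblast array used. It was 4.27 without fibroblast replicate 2 and 2.38 without fibroblast replicate 1, and the gene passed the test in both cases.

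Frzb, the antagonist sFRP3, known from cartilage, was read by 2 probes. The brighter one read 0.80 and -0.07 in myofibroblasts, and -2.97 and -5.74 in fibroblasts, where the second array was not well above background, and it was not well above background in homogenate (-6.85 and -6.81). Because 1 fibroblast array gives only a bound, Frzb was at least 16.7-fold higher in myofibroblasts (fitted difference 4.72 ± 0.90, adjusted p = 0.0250). The limit depended on the fibroblast array. It was 27.7-fold without replicate 1 and became a measured 10.06-fold without replicate 2, with fitted differences of 6.11 and 3.33 that both passed. A bound takes each dim array at its own signal or the dimmest signal on that array still marked as above background, whichever is higher. The second probe read -1.89 and -2.47 in myofibroblasts and was not well above background on the other 4 arrays, so by it Frzb was at least 5.14-fold higher than in fibroblasts (fitted difference 4.46 ± 0.30, adjusted p = 0.00340 over all probes). This fitted difference, its SE and its p-value take in the readings of those 4 arrays, which are not measured levels. Both probes placed myofibroblasts above fibroblasts, and they disagreed about whether fibroblast replicate 1 held a measurable level.

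Sfrp4 went the other way. It read -0.72 and -1.30 in myofibroblasts, 0.38 and 0.54 in fibroblasts, and -2.47 and -2.43 in homogenate. Fibroblasts were thus highest and homogenate lowest, with no overlap between groups. Sfrp4 was 2.77-fold lower in myofibroblasts than in fibroblasts (-1.47 ± 0.29, adjusted p = 0.0270).

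Sfrp2 and Sfrp5 did not pass any test. Sfrp2 read 1.39 and 1.38 in myofibroblasts, 2.38 and 0.19 in fibroblasts, and 1.99 and 1.55 in homogenate. Its fibroblast arrays lay 4.57-fold apart and enclosed all the other arrays. The difference between the sorted groups was 0.10 with a 95% interval from -1.66 to 1.86 (adjusted p = 0.929). Sfrp5 was the steadiest member, at -0.37 and -0.40 in myofibroblasts, -0.30 and -0.35 in fibroblasts, and -0.33 and -0.48 in homogenate. Its difference between the sorted groups was -0.06 (95% interval -0.64 to 0.52, adjusted p = 0.866).

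Wif1, which binds Wnts through a domain unlike that of the Sfrps, was well above background on 1 array only. That array was fibroblast replicate 1, at -3.02, while fibroblast replicate 2 read -5.48, the myofibroblast arrays -6.82 and -6.78, and the homogenate arrays -5.12 and -5.02. No group had 2 arrays above background, and Wif1 was tested in no comparison with all arrays. Without fibroblast replicate 2 it was tested and was lower in myofibroblasts than in the fibroblast array left (fitted difference -3.78). That value rests on 1 fibroblast array and on myofibroblast signals that were not measured.

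Among the proteins that act on the Lrp coreceptors, Dkk2 showed the clearest difference. It read 1.23 and 0.54 in myofibroblasts, -3.03 and -3.66 in fibroblasts, and -5.50 and -5.89 in homogenate, where neither array was well above background. The groups did not overlap, and the arrays within each group lay within 0.68 of each other. Dkk2 was 18.8-fold higher in myofibroblasts than in fibroblasts (4.23 ± 0.38, adjusted p = 0.00343). Dkk1 stayed within a narrow range, at -2.28 and -2.37 in myofibroblasts, -2.85 and -2.31 in fibroblasts, and -2.49 and -2.01 in homogenate. The groups overlapped, and the difference between the sorted groups was 0.26 (95% interval -0.53 to 1.05, adjusted p = 0.586).

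Dkk3, the divergent Dickkopf, read 3.134 and 3.103 in myofibroblasts, 3.66 and 3.54 in fibroblasts, and 1.08 and 1.07 in homogenate. Both fibroblast arrays stood above both myofibroblast arrays, but the difference of -0.48 ± 0.23 did not pass (adjusted p = 0.191). It passed in the authors' deposited table (-0.90, adjusted p = 0.0460). That table moved every gene between these groups down by the same amount, with the median of all genes going from -0.06 to -0.47. A second probe read 1.94 and 2.24 in myofibroblasts, 3.80 and 2.61 in fibroblasts, and 0.38 and 0.16 in homogenate. It gave -1.11 ± 0.44 between the sorted groups (adjusted p = 0.137 over all probes), the same order without a call.

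Notum, the deacylase, read 1.52 and 1.70 in myofibroblasts, 2.21 and 1.78 in fibroblasts, and 1.19 and 1.29 in homogenate by its brighter probe. The order was fibroblasts, myofibroblasts, homogenate with no overlap, and the difference of -0.38 between the sorted groups did not pass (95% interval -1.05 to 0.29, adjusted p = 0.344). Its second probe was well above background on myofibroblast replicate 1 (-2.76) and fibroblast replicate 2 (-2.89) and on no other array, so that it was not tested and no group could be read by it.

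**Figure D2:**
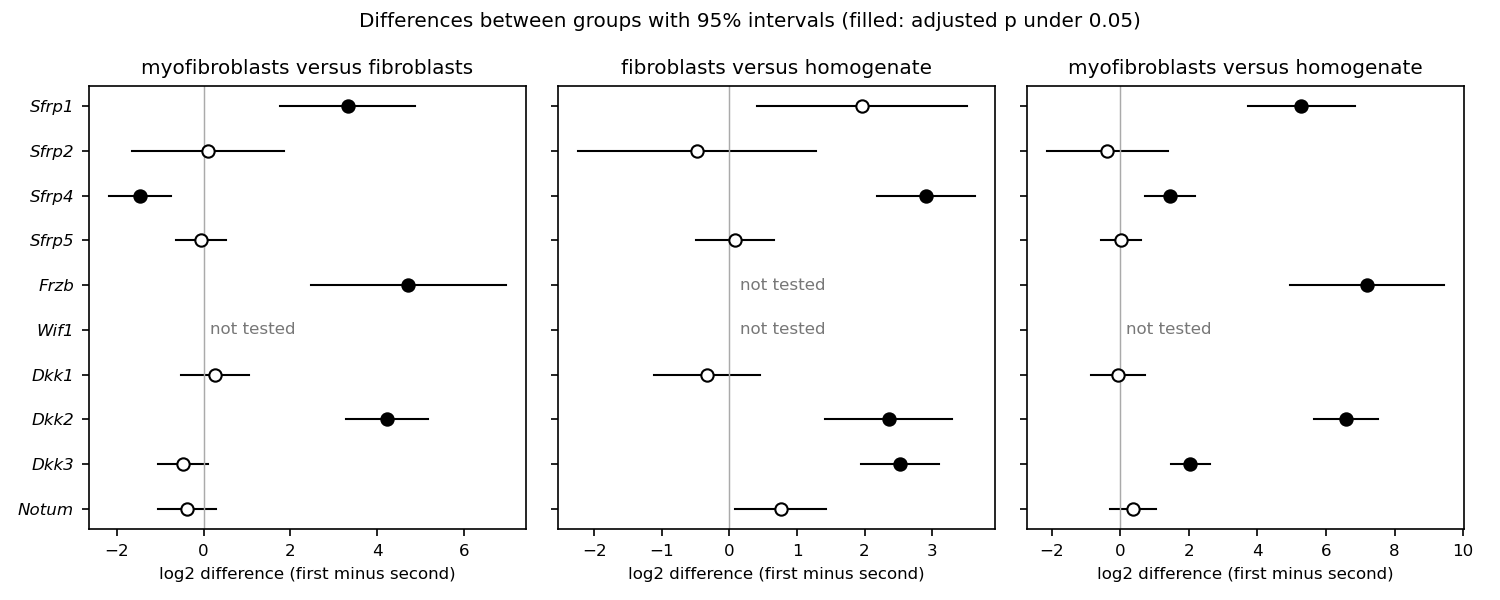
Log2 difference between groups for each member (x axis) with its 95% interval from limma, for the 3 comparisons; filled points have an adjusted p under 0.05. Dkk2, Frzb and Sfrp1 lie to the right in both comparisons that involve myofibroblasts, and Sfrp4 is the called member to the left between the sorted groups.

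Of the 4 calls between the sorted groups, that of Dkk2 held with each array in turn left out (adjusted p of at most 0.0222) and with the 4 sorted arrays alone (0.0109). With those 4 arrays alone, which removes the homogenates from the estimate of spread, Sfrp1, Frzb and Sfrp4 missed the threshold (adjusted p = 0.0507, 0.0520 and 0.0759). Leaving out either homogenate array did the same (up to 0.0641, 0.0660 and 0.0895). Sfrp1 and Frzb also missed it without either myofibroblast array (up to 0.105 and 0.106), and Sfrp4 without myofibroblast replicate 2 (0.114). The count of called members was 1 in place of 4 with the 4 sorted arrays alone. There the share of all genes called was 7.90%, against 17.2% with all arrays. This share was also lower without any 1 of the myofibroblast or homogenate arrays.

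Some markers of other cells moved with these genes, and each list's summed relative signal was carried by few of its genes. Of 6 smooth muscle and pericyte genes, Myh11, Cnn1, Des and Cspg4 were higher in myofibroblasts than in fibroblasts, by 4.29-fold (Myh11) to 155-fold (Des), Notch3 did not pass (0.15, adjusted p = 0.698) and Rgs5 was not tested. Their sum was 41.0 and 52.8 in myofibroblasts, of which Des made up 74.7% to 80.2%, 1.99 to 2.36 in fibroblasts and 10.3 to 13.0 in homogenate. Of 4 cartilage genes Acan alone was higher in myofibroblasts, by at least 3.23-fold, while Col2a1, Sox9 and Comp did not pass (0.57, 0.64 and -0.87). The cartilage sum, mostly Col2a1, was 18.3 to 19.97 in myofibroblasts, 11.7 to 14.1 in fibroblasts and 2.08 to 2.57 in homogenate, and Acan was not above background outside myofibroblasts. Of 5 airway epithelial genes Scgb1a1 alone was lower in myofibroblasts (-2.81, adjusted p = 0.00960), and it made up 98.8% to 99.9% of the sum, which ran from 69.1 to 118 in fibroblasts and from 10.5 to 16.1 in myofibroblasts. Epcam did not pass and Cdh1, Foxj1 and Krt5 were not tested. Of 5 endothelial genes Tek alone was lower in myofibroblasts, by at least 18.1-fold, Pecam1 and Vwf did not pass, and Cdh5 and Kdr were not tested. The endothelial sum was 0.21 to 0.24 in myofibroblasts and 1.33 to 1.66 in fibroblasts. The part of any of these cells in the differences of Dkk2, Frzb, Sfrp1 and Sfrp4 was not tested.

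**Figure D3:**
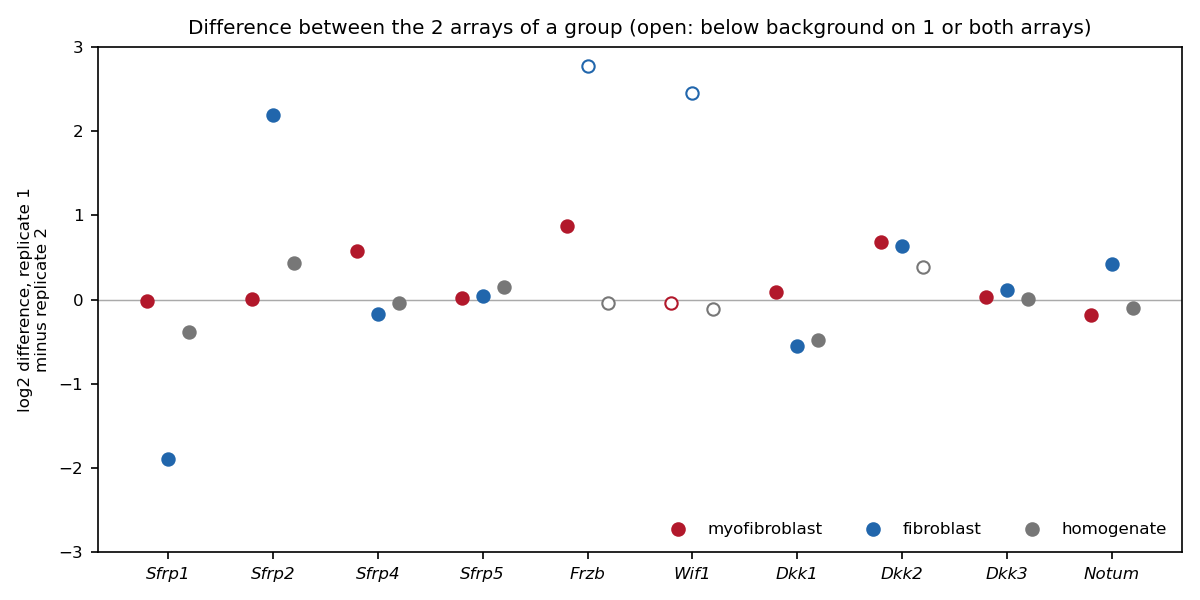
Log2 difference between both arrays of each group (replicate 1 minus replicate 2, y axis) for the brightest probe of each member; open points are not well above background on 1 or both arrays. The fibroblast arrays lie 1.90 apart for Sfrp1 and 2.19 apart for Sfrp2, in opposite directions, while no myofibroblast pair is over 0.87 apart.

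Between steady-state fibroblasts and whole-lung homogenate, Sfrp4, Dkk3 and Dkk2 were higher in fibroblasts and no member was lower. These were 3 of the 8 members tested. Dkk2 was not well above background in homogenate and entered the test only through the fibroblast arrays. Over all 17065 genes tested 19.9% were called, 8.09% higher and 11.8% lower, and 14.5% of all probes tested were. The median of the 8 members was 1.36, beside 0.03 for all genes. In a homogenate, fewer cells of a type and less RNA per cell cannot be told apart. This comparison and the preceding one share the fibroblast arrays.

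Sfrp4 was 7.51-fold higher in fibroblasts than in homogenate (2.91 ± 0.29, adjusted p = 0.00207). Dkk3 was 5.76-fold higher (2.53 ± 0.23, adjusted p = 0.00154), and by its second probe 7.62-fold (2.93 ± 0.44, adjusted p = 0.0123 over all probes). Dkk2 was at least 2.53-fold higher (fitted difference 2.36 ± 0.38, adjusted p = 0.0103), a call that ended with normexp background correction (adjusted p = 0.179) and without homogenate replicate 1 or 2 (0.0540 and 0.0848). Dkk2 is the one member of these 3 that was also higher in myofibroblasts than in fibroblasts.

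For Sfrp1, Notum and Sfrp2 the result against homogenate depended on the fibroblast array. Sfrp1 stood 1.96 ± 0.62 higher in fibroblasts and did not pass (adjusted p = 0.0880), but it passed without either fibroblast array, at 2.91 without replicate 1 (adjusted p = 0.00690) and 1.01 without replicate 2 (0.0480). Notum, at 0.76 ± 0.27 (adjusted p = 0.116), passed without fibroblast replicate 2 (0.97, adjusted p = 0.0348). Sfrp2 changed direction. It was -0.48 with all arrays (adjusted p = 0.684), -1.58 without fibroblast replicate 1 (adjusted p = 0.0289) and 0.61 without fibroblast replicate 2 (0.156). Sfrp5 (0.08) and Dkk1 (-0.34) did not pass, with adjusted p = 0.840 and 0.520. Neither passed with any array left out. More than 3 members were called when either fibroblast array was left out. Without replicate 2 the share of all genes called rose as well, while without replicate 1 it hardly changed. Members called without replicate 2 included Frzb and Wif1 (fitted differences 3.86 and 2.05). Both genes could be tested only when fibroblast replicate 1, the array on which both were above background, stood alone for its group. Neither was well above background in homogenate, so these differences rest on 1 fibroblast array and on signals that were not measured.

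Between myofibroblasts and homogenate, Frzb, Dkk2, Sfrp1, Dkk3 and Sfrp4 were higher in myofibroblasts, 5 of the 9 members tested, and none was lower. Frzb and Dkk2 were not well above background in homogenate and entered the test only through the myofibroblast arrays. Their SE and p-values rest partly on homogenate levels that were not measured. Among genes above background on all 4 arrays, Dkk3, Sfrp1 and Sfrp4 were called, and so were 21.4% of all such genes. Over all 17165 genes tested 26.9% were called, 11.9% higher and 15% lower, and 22% of all probes tested were. Higher genes made up 44.3% of the called ones, against 20.6% in the authors' deposited table and 64.9% after median scaling. The median of the 9 members was 1.44, beside -0.01 for all genes. Dkk2 was at least 47.4-fold higher (6.58 ± 0.38, adjusted p = 0.000375). Frzb was at least 33.03-fold higher (7.19 ± 0.90, adjusted p = 0.00388), and by its second probe at least 5.65-fold (adjusted p = 0.000936 over all probes). Sfrp1 was 38.9-fold higher (5.28 ± 0.62, adjusted p = 0.00318). Dkk3 was 4.12-fold higher (2.04 ± 0.23, adjusted p = 0.00273), and 3.53-fold by its second probe (adjusted p = 0.0409 over all probes). Sfrp4 was 2.71-fold higher (1.44 ± 0.29, adjusted p = 0.0191), which it no longer was at the threshold without myofibroblast replicate 1 (0.0793), without homogenate replicate 1 or 2 (0.128 and 0.126), or in the authors' deposited table (0.0647). Sfrp2 (-0.38), Sfrp5 (0.02), Dkk1 (-0.07) and Notum (0.37) did not pass, with adjusted p from 0.339 to 0.953.

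The homogenate differed from the sorted cells in most markers of other cells as well. All 5 alveolar type 2 genes were higher in homogenate than in either sorted group, with a summed relative signal of 213 to 216 against 3.40 to 5.17. Of 5 endothelial genes (sum 51.4 to 52.7 in homogenate) 4 were higher than in fibroblasts, where Tek did not pass, and 5 than in myofibroblasts. Of 4 mesothelial genes (sum 3.09 to 3.21 in homogenate and 0.18 to 0.94 in the sorted groups) 3 were higher than in fibroblasts and 4 than in myofibroblasts. Of 5 leukocyte genes 4 were higher than in fibroblasts and 3 than in myofibroblasts. Among them, Ptprc (CD45) was at least 549-fold and 453-fold higher, Cd68 10.7-fold and 11.8-fold, and Cd3e 4.92-fold and 6.20-fold. Itgam did not pass in either comparison and made up 79.6% to 80.6% of the leukocyte sum in homogenate and 99.1% to 99.3% in the sorted groups, so that this sum overlapped (170 to 177 in homogenate, 155 to 164 in myofibroblasts and 152 to 174 in fibroblasts). Of 7 fibroblast genes none was higher in homogenate, while 6 were higher in fibroblasts and 5 in myofibroblasts. Their sum was 40.3 to 43.4 in homogenate, 408 to 539 in fibroblasts and 990 to 1030 in myofibroblasts. Between the sorted groups the same list split, with Col1a1 and Col1a2 higher in myofibroblasts (2.54 and 1.53) and Pdgfra and Dcn lower (-2.36 and -2.34). Myh11 was lower in myofibroblasts than in homogenate (-1.29, adjusted p = 0.0316), while Des, Cnn1 and Cspg4 were higher. The part of these cell types in the members' differences from homogenate was not tested.

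The members fell into 3 patterns over the groups, described here without a test. Dkk2, Frzb and Sfrp1 were highest in myofibroblasts. The Dkk2 and Sfrp1 arrays of fibroblasts lay above those of homogenate, a difference that passed for Dkk2 and not for Sfrp1, while fibroblasts and homogenate could not be ordered for Frzb. Sfrp4, Dkk3 and Notum were highest in fibroblasts and lowest in homogenate. Between the sorted groups this passed for Sfrp4 and not for Dkk3 or Notum, and with all arrays Notum passed in no comparison. Sfrp5 and Dkk1 had group means within 0.09 and 0.34 of each other. Sfrp2 had group means between 1.29 and 1.77 with a wide spread in fibroblasts, and Wif1 could not be ordered.

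Genes with the most similar profile were sought among 15791 others by the root mean square difference between the log2 values of both genes over the 6 arrays, each centred on its own mean. Arrays not well above background entered at their deposited readings, which applies to 3 of the 6 arrays for Frzb and 2 for Dkk2. The distances and ranks of these 2 genes rest partly on levels that were not measured. Dkk2 was the nearest gene to Frzb (0.69), followed by Col5a3 (a chain of type V collagen, 0.80) and Adcy1 (0.88). The nearest to Dkk2 were Megf10 (0.39), Col5a3 (0.44) and Col15a1 (0.55). The nearest to Sfrp1 were Ssc5d (0.35), Sparc (a collagen-binding matricellular protein, 0.40) and Col6a2 (a chain of type VI collagen, 0.46). Like Sfrp1, they read higher on fibroblast replicate 2 than on replicate 1, which a choice by distance over single arrays favours. For Sfrp4 the list was Kcne4 (0.18), Echdc2 (0.18) and Phex (0.21), and Lama4 (a laminin chain, 0.11) and Dnm1 (0.11) were among the 3 nearest to Dkk3. Mettl15 (0.19) and Pvt1 (0.21) were among the 3 nearest to Sfrp2. Both read lower on fibroblast replicate 2 as Sfrp2 did, which the same choice favours. The nearest genes to the members that passed no test were Rnf112 (0.05) for Sfrp5, Cldnd2 (0.08) for Dkk1 and Irak1 (0.03) for Notum.

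The Wnt ligands, receptors and other parts of the pathway that these antagonists act on were read from lists of 86 genes. Between the sorted groups, 73 were tested, of which 8 were higher in myofibroblasts and 10 lower, and their median was -0.05. Over all genes tested in this comparison 9.21% were higher and 8.01% lower, with a median of -0.06. Among the ligands, which the Sfrps, Wif1 and Notum act on, 1 of 15 was higher and 3 lower. Wnt10a was at least 15.2-fold higher in myofibroblasts, while Wnt4 and Wnt5b stood at -2.35 ± 0.34 and -2.07 ± 0.46 and Wnt8b was at least 9.84-fold lower (adjusted p from 0.00554 to 0.0359). A second probe of Wnt5b did not pass (-0.58, adjusted p = 0.317 over all probes). Among receptors 2 of 14 were higher, Fzd6 by 3.44 ± 0.28 and Fzd1 by 1.24 ± 0.26, and Fzd4 was lower at -1.76 ± 0.41. The Dkk receptors did not pass: Lrp5 read 2.49 and 2.38 in myofibroblasts and 1.70 and 1.86 in fibroblasts, Lrp6 2.81 and 2.52 against 4.84 and 3.67, and Kremen1 1.63 and 1.82 against 1.75 and 0.83.

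Agonists and other modulators were lower where they were called. Rspo1, an R-spondin that sustains Wnt receptors at the surface, stood at -4.15 ± 0.47 (adjusted p = 0.00609) and Rspo2 was at least 2.93-fold lower, 2 of 8 genes of that list. Of 8 other extracellular modulators 3 were lower and none higher: the antagonist genes Sostdc1 and Apcdd1, by at least 3.102-fold and 2.41-fold, and the glypican gene Gpc3, at -2.09 ± 0.35. Neither gene for Wnt secretion passed (Porcn and Wls, 2 tested). Of 18 cytoplasmic and nuclear components, Tcf7 was higher (1.25 ± 0.28) and Tcf7l1 lower (-2.07 ± 0.51). Of 12 target genes, 5 were higher, led by Ccnd1 (cyclin D1) at 4.15 ± 0.36, Cd44 at 3.57 ± 0.44 and Ccn4 at 2.63 ± 0.52, and 1, Apcdd1, was lower. Tcf7 and Apcdd1 stand in 2 of the lists each. These targets also respond to other signals. Axin2, a target used as a readout of the pathway, read -1.62 and -2.12 in myofibroblasts, 0.99 and -0.64 in fibroblasts and -2.09 on both homogenate arrays, and did not pass between the sorted groups (-2.05, adjusted p = 0.0602). The calls of Wnt10a, Fzd6, Rspo1, Sostdc1, Ccnd1 and Cd44 held when any array was left out, and the other 12 ended without at least 1 array (adjusted p up to 0.169). Left-out fibroblast arrays moved Cd44 between 2.95 and 4.19, Wnt5b between -2.71 and -1.44 and the fitted difference of Rspo2 between -2.996 and -1.65, and that of Wnt8b ran from -4.85 to -2.85 over all left-out arrays. The 18 calls between the sorted groups were 9 with the 4 sorted arrays alone, where the share of all genes called fell from 17.2% to 7.90%. The calls and this share were both lower without a myofibroblast or homogenate array. Both were higher without fibroblast replicate 2.

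**Figure D4:**
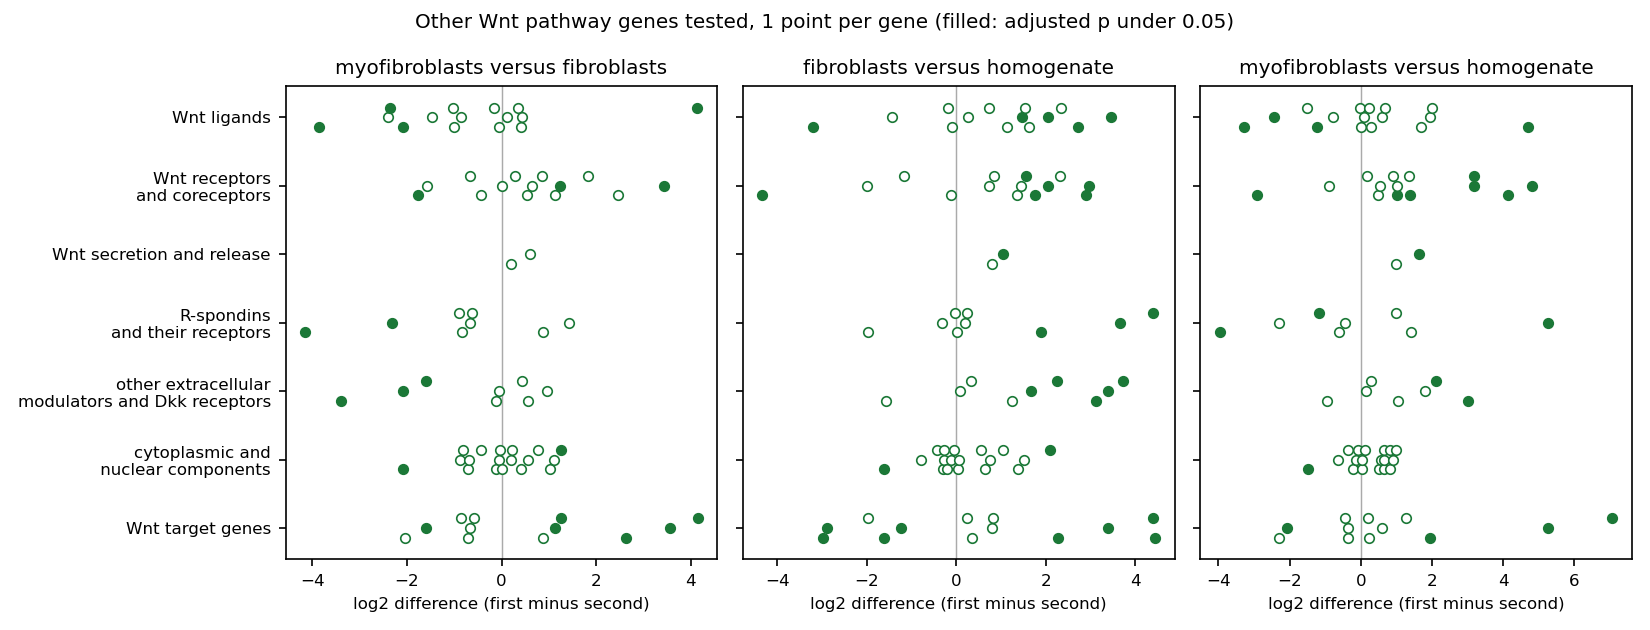
Log2 difference between groups (x axis) of the other Wnt pathway genes tested, 1 point per gene in rows by role, for the 3 comparisons; filled points have an adjusted p under 0.05. Called R-spondins and extracellular modulators lie left of 0 between the sorted groups and right of 0 between fibroblasts and homogenate.

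Against homogenate, 21 of 74 pathway genes were higher and 6 lower in fibroblasts (median 0.75), and 13 of 73 were higher and 8 lower in myofibroblasts (median 0.53). Over all genes tested, 8.09% were higher and 11.8% lower in fibroblasts (median 0.03). In myofibroblasts 11.9% were higher and 15% lower (median -0.01). The extracellular modulators and Dkk receptors were higher in fibroblasts in 5 of 9 cases, among them Sostdc1 (at least 3.22-fold), Apcdd1 (at least 2.50-fold) and Trabd2b (3.13 ± 0.74), a protease that inactivates Wnts. Kremen1 was higher in both sorted groups, by 1.67 ± 0.37 in fibroblasts and 2.11 ± 0.37 in myofibroblasts. Of 13 target genes 4 were higher and 4 lower in fibroblasts, and of 12 in myofibroblasts 3 were higher and 1 lower. Ccn4 was higher in both, by 4.44 ± 0.52 and 7.07 ± 0.52, and Axin2 in fibroblasts (2.26 ± 0.56, adjusted p = 0.0425). Cd44 (-2.98), Ccnd1 (-2.89), Tcf7 (-1.61) and Nkd1 (-1.23) were lower in fibroblasts, and Nkd1 in myofibroblasts (-2.08). Outside the targets, Fzd6 (-4.33) was among the lower genes in fibroblasts, and Rspo1 (-3.96) and Fzd4 (-2.93) in myofibroblasts. Of the genes named in this paragraph, Sostdc1, Apcdd1, Ccn4, Ccnd1, Fzd6, Rspo1 and Fzd4 kept these calls when any array was left out. Trabd2b, Kremen1, Axin2, Cd44, Tcf7 and Nkd1 did not. Without homogenate replicate 1 and 2 the Ccn4 differences were 5.18 and 3.70 in fibroblasts and 7.81 and 6.33 in myofibroblasts. Axin2 ran from 1.45 to 3.07 with a fibroblast array left out. Without either homogenate array fewer pathway genes were called than the 27 in fibroblasts and 21 in myofibroblasts with all arrays. More than 21 were called in myofibroblasts without fibroblast replicate 1. The share of all genes called moved the same way in each case.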

How the data were processed

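Expression was measured on 6 one-colour arrays, which the labels sort into 3 groups. The deposited scanner output is the intensity of each spot from Agilent Feature Extraction 12.0.3.1, with background subtracted, signals detrended and small values replaced by positive surrogates, per the file headers. A second deposited table holds the authors' scaled intensity values, in which every column equals the processed signal multiplied by a constant (from 5.17 to 6.93). For these constants no rule was given in the sources used here.

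Each array's log2 75th percentile was subtracted from the log2 processed signal. Control and outlier spots were left out and spots of a probe averaged. Probes were named by transcript through a RefSeq table (GRCm38.p6), which gave 32994 of 56605 probes 1 gene each, and the brightest probe stood for a gene. Differences were tested two-sided with lmFit and eBayes of limma 3.58.1 (R 4.3.3), fitting the 3 groups on all 6 arrays at once (3 residual degrees of freedom, 5.57 with the prior). P-values were adjusted over the genes tested in a comparison, or over all probes tested for the other probes of a gene. Spots well above background made up 65.5% to 73.4% of an array and none was saturated. With 2 arrays per group, their number limits the precision.

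The members, the pathway and marker lists and the tests were chosen with earlier results of these data known. The named genes were all members, the called genes of each pathway list (the 3 largest where more were called one way) and the 3 genes nearest to each member in pattern, predicted genes and clones aside; some of the nearest genes are not reported here. Genes named outside this rule (Lrp5, Lrp6, Kremen1 between the sorted groups, Axin2 and the sex-linked genes) were chosen after their values were seen. All arrays came from 1 slide and 1 scan. The fit was tested on simulated data.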

Additional observations from a re-analysis of the deposited data

How the results depend on the processing

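Over up to 21 alternatives for each comparison, the members tested with all arrays gave 542 values, of which 493 kept their direction and their side of the threshold, 27 lost a call, 7 gained one and 15 changed sign. Wif1 and, in fibroblasts against homogenate, Frzb were tested only under some alternatives and are not among these values. In the comparisons with fibroblasts they passed without fibroblast replicate 2, against groups in which they were not well above background. They did not pass with no filter on dim probes (adjusted p from 0.116 to 0.594). Between the sorted groups the count of 4 called members was 1 with the 4 sorted arrays alone and 1 at an adjusted p under 0.01, and 1 to 5 with an array left out. Sfrp4 also lost its call with array weights per group (adjusted p = 0.0562). Against homogenate the fibroblast count of 3 ran from 2 to 7 with an array left out. The myofibroblast count of 5 was 3 among genes above background on all 4 arrays, which leaves out Dkk2 and Frzb, and ran from 4 to 5 with an array left out. The 18 other pathway genes called between the sorted groups were 11 with no filter on dim probes, 9 with the 4 arrays alone, 11 with array weights, 6 at an adjusted p under 0.01 and 7 to 32 with an array left out. The 27 called in fibroblasts against homogenate were 10 at 0.01 and 10 to 39 with an array left out. The 21 called in myofibroblasts against homogenate were 34 with median scaling, 36 with the 4 arrays alone, 34 with array weights, 13 at 0.01, 33 at an adjusted p under 0.10 and 10 to 36 with an array left out. The share of all genes called moved too. Between the sorted groups it was 17.2%, and 8.79% with no filter, 7.90% with the 4 arrays alone, 10.9% with array weights and 4.44% at 0.01. In fibroblasts against homogenate it was 19.9%, and 10.1% at 0.01. In myofibroblasts against homogenate it was 26.9%, and 31.7% with median scaling, 43.1% with the 4 arrays alone and 43.9% with array weights. There it was 12.1% at 0.01 and 38.0% at 0.10. Where the cause of a changed count is not fewer arrays or another threshold, it was not tested.

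Signs changed in members without a call in these comparisons. Between the sorted groups these were Sfrp2 in the authors' deposited table (-0.31) and with an array left out (-0.99 to 1.20), Sfrp5 with median scaling (0.077), and Dkk1 in the authors' table (-0.15) and with an array left out (-0.011 to 0.53). In fibroblasts against homogenate they were Sfrp2 with an array left out (-1.58 to 0.61) and Sfrp5 in the authors' table (-0.0034). In myofibroblasts against homogenate they were Sfrp2 with median scaling (0.021), Sfrp5 in the authors' table (-0.48) and with an array left out (-0.055 to 0.099), Dkk1 with normexp (0.049), quantile (0.29) and median scaling (0.33) and with an array left out (-0.31 to 0.17), and Notum in the authors' table (-0.12). The authors' table moved the median of all genes to -0.47 between the sorted groups and -0.51 between myofibroblasts and homogenate, and median scaling moved it to 0.30 and 0.39 against homogenate in fibroblasts and myofibroblasts. Normexp correction used the median spot signal.

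Same-numbered arrays did not deviate together (correlations of 0.07, -0.01 and 0.04 over 13998 genes). Whether same-numbered samples share an animal or a sort cannot be settled by these correlations. With the replicate number as a block, 4, 3 and 5 members and 13, 27 and 19 pathway genes were called in the 3 comparisons in the order above. Genes not above background in a group, such as Wif1 or Frzb in homogenate, have no measured level there.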
